A study of Mus musculus with 16 samples.

Results

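The integrins of the epidermis, laminin 332 and tenascin C form the contact between keratinocytes and the matrix under them. The 9 genes described here were chosen by name from the 24421 genes of the deposited table. They are the integrin chains Itga6, Itgb4, Itga3, Itgb1, Itga5 and Itgb6, the laminin 332 chains Lama3 and Lamb3, and Tnc, which encodes tenascin C. Of these, Itga6, Itgb4 and Itga3 are called homeostatic, because they hold resting basal cells to the basement membrane, and Itga5, Itgb6 and Tnc are called wound-type, because they are known to appear when epidermis repairs a wound. All 9 genes passed the filter on low counts in every comparison.

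RNA from skin of female SKH-1 mice, a hairless strain used to study skin cancer caused by ultraviolet light, was sequenced in 16 libraries that fall into 8 groups of 2. Epidermis came from mice with no agent and from mice given UVB at 60 mJ/cm2 in 2 sessions per week, each after 2, 15 and 25 weeks. At week 25 there was also whole skin of mice with no agent and tumors of mice given UVB. The strain and sex are the same in all groups, ages are not stated in the labels, and libraries are named here by group and by the number 0 or 1 in their titles. Whether the pair of libraries in each group came from different mice is not stated, and p-values therefore reflect the variation within these pairs, some or all of which could be technical.

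Integrins are receptors made of an alpha and a beta chain. The alpha 6 chain pairs with beta 4 in hemidesmosomes, where it binds laminin 332 and is tied to the keratin filaments inside the cell, while alpha 3 pairs with beta 1 and binds the same laminin at focal contacts. In wounds, migrating keratinocytes are known to take up alpha 5 beta 1, the classical fibronectin receptor, and alpha v beta 6, which binds fibronectin and tenascin C and activates latent TGF-beta. Tenascin C is a large glycoprotein of the provisional wound matrix.

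Libraries held 2905165 to 7959503 counts, and the shallowest was week 2 control 1. The libraries of a pair differed beyond counting noise in all 8 groups, least in tumors (chi-square per degree of freedom 4.82) and most in whole skin (48.9). Week 2 controls also differed (21.2), as did week 15 controls (18.1). The summed level of the 4 basal keratinocyte markers, led by Krt5, lay between 911 and 1661 CPM (counts scaled to a common library size) in all 16 libraries. Duplicate reads were removed from these counts, which limits abundant genes, so this range does not measure the share of keratinocytes. The 7 fibroblast markers, led by Col3a1, summed to 3.85 to 143.9 CPM in the epidermis libraries, 571 and 1084 in whole skin and 1109 and 1500 in tumors. CPM values are scaled by TMM factors over all 16 libraries. In such bulk samples, fewer cells of a type and less RNA per cell cannot be told apart.

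Promoter sequence is shown for Itgb1, Itga5 and Tnc, which were called at week 25 and whose 250 bases before the start site hold no annotated exon. RefSeq's promoter table (GRCm38.p6, the assembly that mm10 names) had 6 of the 9 genes. Capitals mark matches, on either strand, to the GC box motif GGGCGG, the TATA box motif TATAAA, the TEAD motif GGAATG and the AP-1 motif TGANTCA. Each sequence runs 5′ to 3′ on the gene's own strand. The coordinates are chr8:128685404-128685653 (plus) for Itgb1, chr15:103366792-103367041 (minus) for Itga5 and chr4:64047016-64047265 (minus) for Tnc.
Itgb1 promoter: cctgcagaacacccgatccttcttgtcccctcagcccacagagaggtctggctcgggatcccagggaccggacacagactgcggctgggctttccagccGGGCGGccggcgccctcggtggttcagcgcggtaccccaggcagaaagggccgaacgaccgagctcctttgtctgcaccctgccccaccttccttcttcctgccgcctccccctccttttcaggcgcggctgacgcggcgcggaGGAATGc
Itga5 promoter: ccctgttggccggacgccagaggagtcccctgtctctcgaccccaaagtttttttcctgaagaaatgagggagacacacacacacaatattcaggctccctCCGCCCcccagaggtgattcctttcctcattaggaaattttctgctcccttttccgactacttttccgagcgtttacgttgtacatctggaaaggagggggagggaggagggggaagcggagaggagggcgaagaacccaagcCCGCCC
Tenascin C promoter: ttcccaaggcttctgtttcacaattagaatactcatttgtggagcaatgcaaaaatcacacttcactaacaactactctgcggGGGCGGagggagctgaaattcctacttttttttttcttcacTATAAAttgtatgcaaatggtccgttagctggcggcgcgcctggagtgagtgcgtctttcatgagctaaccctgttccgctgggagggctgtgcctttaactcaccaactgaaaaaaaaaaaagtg

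A GC box began 151 bases before the start of Itgb1, 149 and 6 bases before that of Itga5 and 167 bases before that of Tnc, a motif held by 32.7% of 32817 RefSeq promoters of this length. Itgb1 also had a TEAD match 7 bases before its start (12.6% of promoters), and Tnc a TATA match 126 bases before its start (12.4%). No AP-1 match was found in these 3 windows (6.8% of promoters hold one), which says only that these letters are not there. G and C made up 68.0% of the Itgb1 window, 55.6% of that of Itga5 and 44.8% of that of Tnc.

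In mm10, the build of the deposited table, Itga6 lies at chr2:71786939-71858427 on the plus strand and Itgb6 at chr2:60598292-60722603 on the minus strand. Itgb4 lies at chr11:115974725-116008411 on the plus strand and Itga3 at chr11:95044475-95076811 on the minus strand. Itgb1 is at chr8:128685654-128733579, plus strand, and Itga5 at chr15:103344286-103366748, minus strand. Lama3 spans chr18:12334024-12583012 and Lamb3 chr1:193301994-193343878, both on the plus strand, and Tnc spans chr4:63959785-64047015 on the minus strand. Counts are sums over all annotated exons of a gene, so the alternative forms of Itga6 and Lama3 are not separated. Itgb4 shares 55 exon bases, 0.89% of its exon length, with Galk1 on the opposite strand, and the other 8 genes share none with a neighbour.

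Levels of different genes were compared per kilobase of exon. In control epidermis at week 25 the homeostatic chains stood well above the wound-type genes. Itgb4 was at 19.7 ± 0.488 CPM per kb (SD, n = 2 here and below) and Itga6 at 19.6 ± 1.09, followed by Lamb3 at 14.5 ± 1.18, Itga3 at 12.8 ± 1.82, Itgb1 at 10.3 ± 2.45 and Lama3 at 5.67 ± 0.0342. Itgb6 was at 2.79 ± 0.868, Tnc at 1.26 ± 0.000757 and Itga5 at 0.516 ± 0.019. The order changed in UVB-exposed epidermis of that week, where Itga6 (36.1 ± 8.48) and Itgb1 (32.9 ± 12.9) led and Tnc, at 15.9 ± 2.13 CPM per kb, stood above Lama3 at 7.50 ± 3.19. Itga5 remained lowest there at 5.43 ± 1.02, and Itgb6 was at 7.57 ± 1.80. The wound-type genes were not confined to exposed mice. Whole skin without UVB had Tnc at 13.5 ± 7.67 CPM per kb, Itga5 at 11.8 ± 4.24 and Itgb6 at 9.08 ± 3.16.

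**Figure D1:**
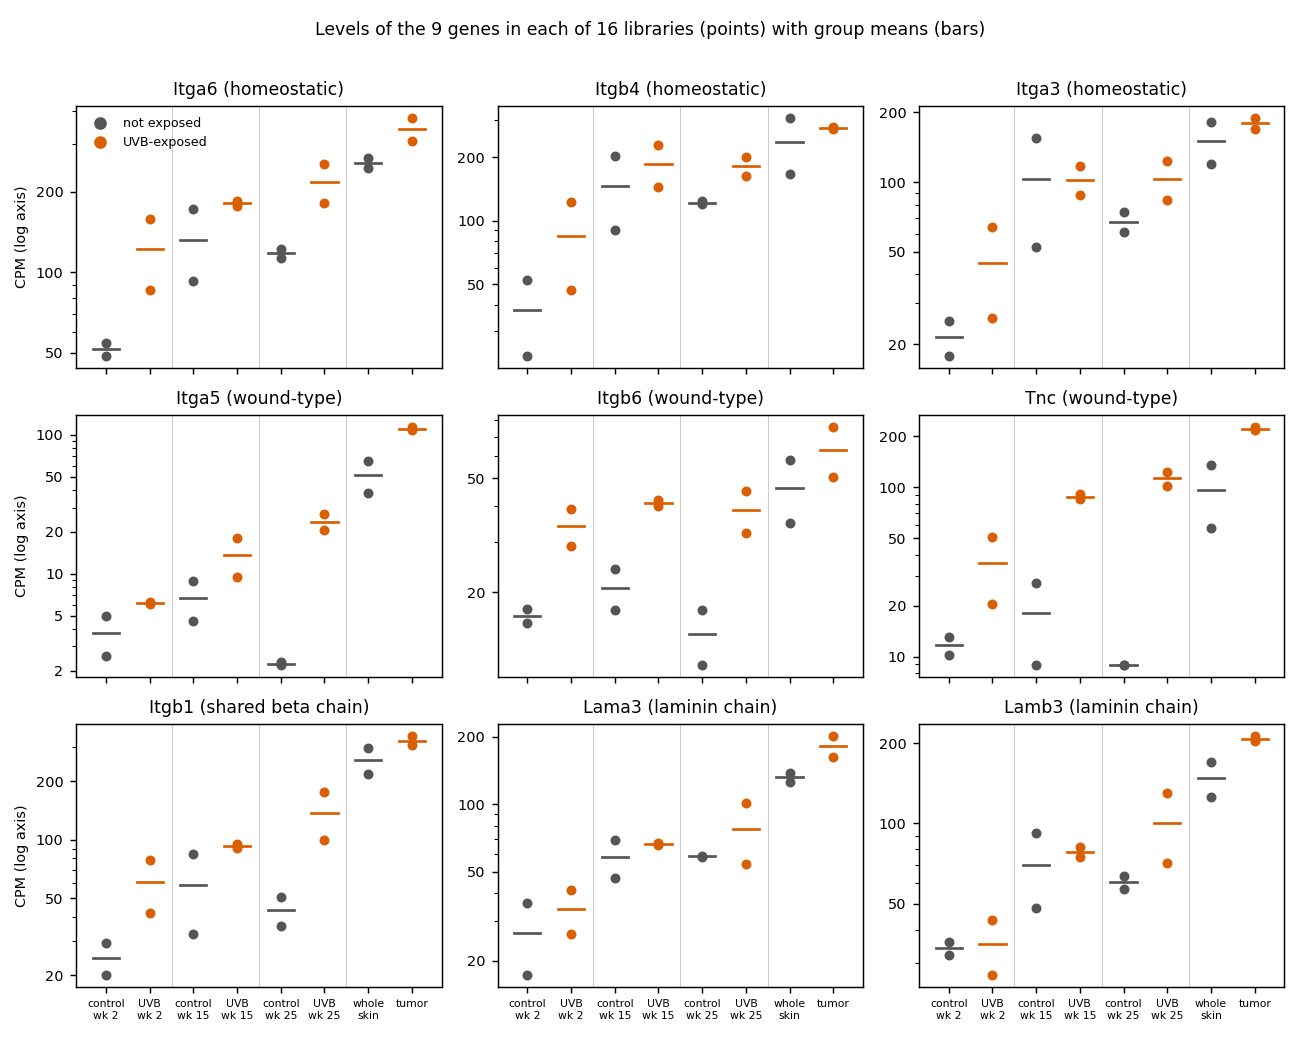
Level of each of the 9 genes in CPM on a log axis, 1 panel a gene, with 1 point a library and a bar at the group mean of 2 libraries, grey for mice with no agent and orange for UVB-exposed mice. Tnc and Itga5 have their lowest group mean in control epidermis at week 25 (8.94 and 2.25 CPM) and all 9 genes have their highest in tumors.

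UVB-exposed epidermis had more RNA of the wound-type genes at week 25. The homeostatic chains were not called there in the main fit, though Itga6 was called in 3 of 11 alternatives and Itgb4 in 1. Calls throughout use edgeR's quasi-likelihood F test with Benjamini-Hochberg adjustment over all tested genes and a threshold of 0.05. At week 2, 2 of the 9 genes rose (Itga6 and Itgb6), where 8.09% of all tested genes rose. At week 15 it was 1 (Tnc, with 1.85% of all genes), and at week 25 it was 4 (Itgb1, Itga5, Itgb6 and Tnc, with 10.6%). None of the 9 fell at any week, against 9.74%, 1.64% and 10.9% of all genes. Both exposed libraries were above both controls for 6, 5 and 8 of the 9 genes at weeks 2, 15 and 25, which 31.4%, 26.9% and 37.1% of all genes also showed. The median log2 difference over the 9 genes was 1.01, 0.43 and 0.85 at weeks 2, 15 and 25, beside medians over all genes of -0.03, -0.01 and 0.01.

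**Figure D2:**
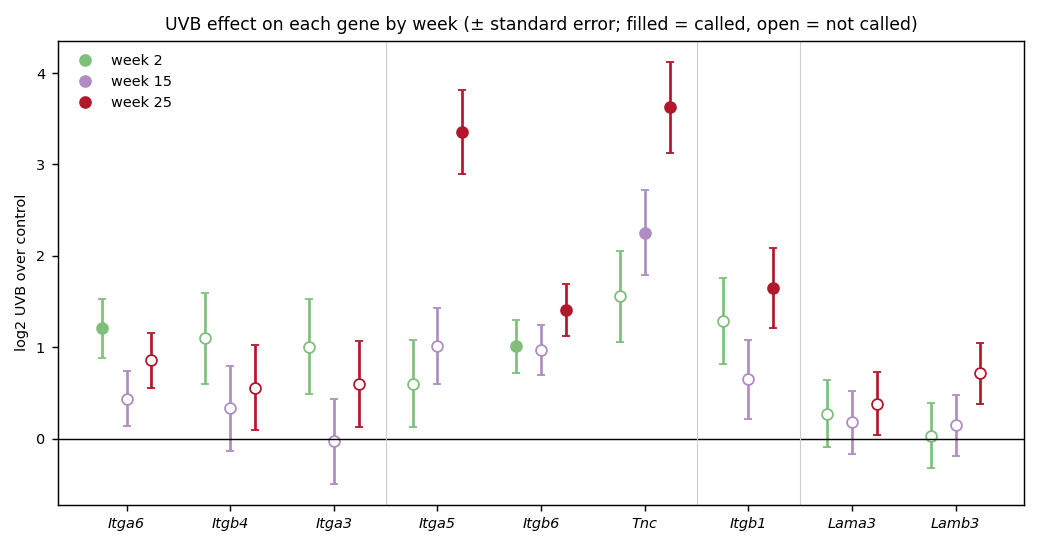
Fitted log2 difference of UVB-exposed over control epidermis for each gene at weeks 2, 15 and 25, with its standard error as bars, filled where called and open where not. Tnc and Itga5 stand at 3.63 and 3.36 at week 25, above the other 7 genes, and the bars of Lama3 and Lamb3 stay below 1.2 at every week.

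Among the homeostatic chains, Itga6 encodes the alpha chain of the hemidesmosome receptor. It had 54.6 and 48.7 CPM in week 2 controls against 86.2 and 157.6 CPM in UVB-exposed epidermis (libraries 0 and 1). The exposed libraries lay above both controls, and the log2 difference was 1.20 ± 0.32 (SE, adjusted p = 0.0288). It was 0.71 without UVB 1 and 1.58 without UVB 0. Without control 1 the adjusted p was 0.109, without UVB 1 it was 0.237, with only the 4 libraries compared in the fit it was 0.0803, and it ran from 0.00156 to 0.237 over the alternatives. At week 15 controls had 93.0 and 172.1 CPM and exposed libraries 177.1 and 184.9, a log2 difference of 0.43 (adjusted p = 0.46). At week 25 controls had 122.6 and 113.3 CPM and exposed libraries 253.2 and 181.1, which did not overlap. The log2 difference of 0.85 ± 0.30 was not called in the main fit (adjusted p = 0.0673). It was called by DESeq2 (adjusted p = 0.0351), and by edgeR without the low count filter (0.0147) or with only the 4 libraries compared (0.00895).

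Itgb4 encodes the beta chain that only alpha 6 pairs with. Its week 2 controls had 52.5 and 22.9 CPM and its exposed libraries 47.0 and 122.9, so that the groups overlapped (log2 difference 1.10 ± 0.50, adjusted p = 0.144). The week 15 controls (89.8 and 202.5 CPM) and exposed libraries (227.6 and 143.6) overlapped too. At week 25 all exposed values (200.7 and 162.5) were above the controls (119.3 and 123.5), with a log2 difference of 0.55 (adjusted p = 0.417). With only the 4 libraries compared in the fit, edgeR called Itgb4 there (log2 difference 0.58, adjusted p = 0.0146). Both chains of the hemidesmosome receptor thus had exposed libraries above controls at week 25 without being called in the main fit.

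Itga3 encodes the alpha chain of the other laminin 332 receptor. It rose in no week by the test. Controls had 25.3 and 17.8 CPM at week 2, 52.3 and 154.2 at week 15, and 74.2 and 60.7 at week 25. Exposed epidermis had 26.0 and 63.9, then 116.8 and 87.9, then 123.6 and 83.4 CPM. The groups overlapped only at week 15, where control 1 was the highest of the 4. The log2 differences were 1.005 ± 0.52 (adjusted p = 0.19), -0.03 and 0.59 (adjusted p = 0.387), and the value at week 15 turned positive under cyclic loess scaling (0.14) and with a replicate block (0.026).

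Of the wound-type genes, Tnc differed most. Control epidermis had 13.1 and 10.2 CPM at week 2, 8.88 and 27.2 at week 15, and 8.94 and 8.93 at week 25. Exposed epidermis had 20.3 and 50.9 CPM, then 91.0 and 84.5, then 123.3 and 102.0. No exposed library overlapped the controls of its week, and the only control above 20 CPM was week 15 control 1. The log2 difference was 1.56 ± 0.50 at week 2 (adjusted p = 0.052, not called), 2.25 ± 0.46 at week 15 (adjusted p = 0.0317) and 3.63 ± 0.50 at week 25 (adjusted p = 0.00227), a 12.3-fold difference. Without week 15 control 0, UVB 0 or UVB 1 the week 15 call was lost (adjusted p = 0.187, 0.111 and 0.175, in a range from 0.000104 to 0.187 over the alternatives). The week 15 log2 difference itself ran from 1.70 without control 0 to 3.28 without control 1, while at week 25 Tnc was called under all 11 alternatives. At week 2 it was called in 3 of 11 alternatives, among them DESeq2 (adjusted p = 0.0106) and edgeR without the low count filter (0.00612). Its week 2 log2 difference ran from 0.76 without UVB 1 to 2.08 without UVB 0.

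Itga5 encodes the alpha chain of the fibronectin receptor and had the fewest counts of the 9 genes, from 6 to 827 a library. Its controls had 4.95 and 2.54 CPM at week 2, 4.54 and 8.85 at week 15, and 2.19 and 2.31 at week 25. Exposed epidermis had 6.02 and 6.25 CPM, then 9.54 and 18.0, then 26.9 and 20.5. Exposed libraries were above the controls at every week. The test called Itga5 at week 25 alone, with a log2 difference of 3.36 ± 0.46 (adjusted p = 0.00227), against 0.60 ± 0.47 at week 2 (adjusted p = 0.382) and 1.01 ± 0.41 at week 15 (adjusted p = 0.195). All 11 alternatives called it at week 25, with an adjusted p of at most 0.0272.

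Itgb6 encodes the beta chain of the receptor that activates TGF-beta. Among the 3 wound-type genes its difference varied least over time. Controls had 17.5 and 15.7 CPM at week 2, 17.4 and 24.1 at week 15, and 11.1 and 17.4 at week 25, and exposed libraries had 29.2 and 39.2, then 40.0 and 42.2, then 45.2 and 32.1. The lowest exposed library was above the highest control of any week. Log2 differences were 1.01 ± 0.29 (adjusted p = 0.0372), 0.97 ± 0.28 (adjusted p = 0.0802) and 1.41 ± 0.28 (adjusted p = 0.00854). The week 2 call was lost without control 1, UVB 0 or UVB 1 (adjusted p = 0.122, 0.0582 and 0.229, with 0.0158 to 0.229 over the alternatives) and also with all 16 libraries or only the 4 compared in the fit (0.0635 and 0.0952). The week 25 call was lost without control 0 or UVB 0 (adjusted p = 0.0699 and 0.0791, with 0.000145 to 0.0791 over the alternatives). Itgav, whose alpha v chain pairs with beta 6, had 136 and 131 CPM in week 2 controls and 189 and 194 in exposed epidermis (log2 difference 0.49 ± 0.13, adjusted p = 0.0284), and its differences of 0.15 and -0.37 at weeks 15 and 25 were not called (adjusted p = 0.568 and 0.0622).

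Itgb1 encodes the beta chain that alpha 3 and alpha 5 share. It had 20.2 and 29.2 CPM in week 2 controls, 32.6 and 84.0 at week 15, and 50.4 and 35.9 at week 25. In exposed epidermis it had 41.8 and 79.0, then 94.7 and 90.6, then 176.0 and 99.7 CPM, above the controls of the same week each time. It rose at week 25 (log2 difference 1.65 ± 0.44, adjusted p = 0.025), while the differences at week 2 (1.29 ± 0.47, adjusted p = 0.0788) and week 15 (0.65) were not called. Without control 0, control 1 or UVB 0 the week 25 call was lost (adjusted p = 0.0766, 0.147 and 0.179, with 0.000945 to 0.179 over the alternatives).

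Neither Lama3 nor Lamb3 passed the test at any of the 3 weeks. Lama3 encodes the alpha 3 chain that integrins bind, and had 36.1 and 17.4 CPM in week 2 controls and 26.3 and 41.5 in exposed epidermis. At week 15 controls had 47.0 and 68.9 CPM and exposed libraries 65.5 and 66.8, and at week 25 controls had 58.9 and 58.4 and exposed libraries 100.9 and 54.3. The groups overlapped at all 3 weeks, with log2 differences of 0.27, 0.18 and 0.38. Lamb3 encodes the beta 3 chain and had 32.1 and 36.0, 48.2 and 91.9, and 63.8 and 56.8 CPM in controls of weeks 2, 15 and 25, against 27.1 and 43.6, 81.6 and 74.9, and 129.6 and 71.3 in exposed epidermis. Its groups separated at week 25, where the log2 difference of 0.71 was not called (adjusted p = 0.149).

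In a fit over all 3 weeks, 5 of the 9 genes rose, beside 14.4% of all tested genes. This additive fit of week and treatment gave log2 differences of 2.499 ± 0.37 for Tnc (adjusted p = 0.000683), 1.65 ± 0.43 for Itga5 (0.0135), 1.19 ± 0.27 for Itgb1 (0.00696), 1.13 ± 0.17 for Itgb6 (0.000676) and 0.82 ± 0.19 for Itga6 (0.00765). Each of the 5 calls held under all 18 alternatives. Itgb4 (0.65 ± 0.28, adjusted p = 0.0978), Itga3 (0.50 ± 0.29), Lama3 (0.28) and Lamb3 (0.30) were not called, although Itgb4 and Itga3 were called without week 15 control 1 (adjusted p = 0.0277 and 0.017). For Itgb6 alone, all 6 exposed libraries were above all 6 controls, which 5.14% of all genes also showed.

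Whether the UVB effect differed between weeks was tested as an interaction. The effect on Itga5 was larger at week 25 than at week 2 by 2.76 ± 0.66 on the log2 scale (adjusted p = 0.0319), the only call among the 9 genes, where 3.33% of all genes were called in that direction. For Tnc the difference of 2.07 ± 0.69 was not called (adjusted p = 0.0859), and for Itgb6 (0.40 ± 0.40) and the 3 homeostatic chains (-0.54 to -0.35) it was smaller than its SE or near it. The Itga5 call was lost without any 1 of 7 of the 8 libraries (adjusted p = 0.0696 to 0.111) and under cyclic loess scaling with limma (0.0565). The difference of 2.76 was 2.095 without week 2 control 0 and 2.12 under cyclic loess. It held without week 2 control 1, the library with 6 Itga5 counts. Between weeks 2 and 15 no gene of the table was called by edgeR (1190 at an unadjusted p under 0.05, and 50 called by DESeq2), and none of the 9.

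**Figure D3:**
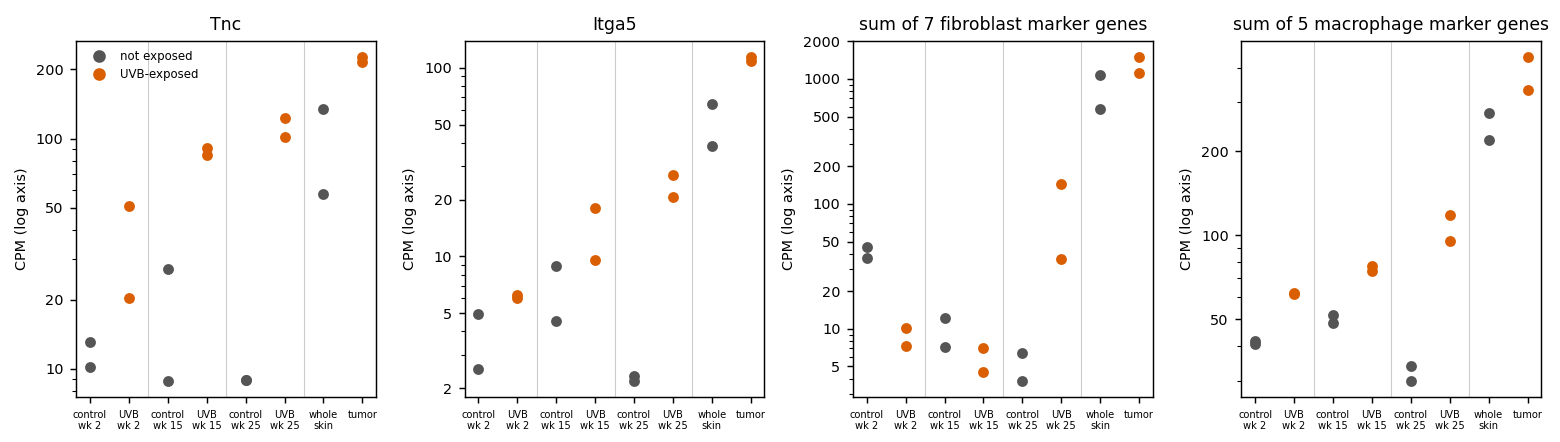
Levels of Tnc and Itga5 beside the summed levels of 7 fibroblast and 5 macrophage marker genes, in CPM on log axes, with 1 point a library. At week 15 exposed epidermis has high Tnc (84.5 and 91.0 CPM) and fibroblast sums of 4.498 and 7.04 CPM, and at week 25 all 4 measures are higher in exposed than in control epidermis.

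Markers of other cell types also differed between exposed and control epidermis, in directions that varied with the marker and the week. Their part in any of the results above was not tested. At week 25, all 6 tested fibroblast markers rose in exposed epidermis (median log2 difference 4.55), with sums of 143.9 and 36.3 CPM in exposed libraries 0 and 1 against 6.41 and 3.85 in controls. None of the fibroblast markers was at 0 in both exposed libraries. Of the 5 macrophage markers 3 rose there (sums 118.5 and 95.4 against 33.9 and 30.0). The most abundant of the 5 over all libraries was Csf1r, the receptor of a macrophage growth factor. At weeks 2 and 15 the summed fibroblast level was lower in exposed epidermis. It was at 7.34 and 10.2 CPM against 36.9 and 45.3 at week 2 and at 7.04 and 4.498 against 7.11 and 12.2 at week 15. Single fibroblast markers differed in direction at week 15: Dcn fell by 2.80 ± 0.67 on the log2 scale (adjusted p = 0.0482), while Pdgfrb had 0 counts in both controls and 3 and 4 in exposed libraries. Macrophage sums were higher in exposed epidermis at these weeks too, at 62.1 and 61.6 against 41.8 and 40.6 at week 2 and 74.3 and 77.2 against 48.6 and 51.8 at week 15. Of the 5 macrophage markers 1 rose at week 2 (Cd68, log2 difference 0.72 ± 0.22, adjusted p = 0.0471) and 1 at week 15 (Cd163, 4.47 ± 0.71, adjusted p = 0.0144).

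Proliferation and hair follicle markers moved as well. The 4 proliferation markers all rose at week 2 (sums 273 to 359 CPM against 66.5 to 72.7). At week 15, 1 of 4 rose (458 and 534 against 153 and 299), and at week 25 2 of 4 did (310 and 250 against 130 and 142). The follicle keratin Krt71 was the most abundant of the 5 hair follicle markers over all libraries. Of these 5, 4 fell at week 2 (sums 1498 and 1730 CPM in controls against 263 and 18.6), 2 at week 15 (1119 and 722 against 90.7 and 223) and 1 at week 25 (844 and 480 against 247 and 70.7). All 5 fell in the mean over weeks. Of the 4 stress keratins, made by injured or activated epidermis, Krt6a rose at week 2, none was called at week 15, and Krt16, Krt6a and Krt6b rose at week 25 (sums 1526 and 1795 against 831 and 1030). The T cell marker Cd3g fell at weeks 2 and 15 (1 of 4 markers each time), and the adipocyte marker Fabp4 fell at week 2 (1 of 2 tested). Of the 4 basal keratinocyte markers, Krt5 and Trp63 rose at week 2 (sums 1397 and 1501 against 1143 and 911), and none was called at weeks 15 and 25. The neutrophil marker S100a8 rose at weeks 2 and 25, and S100a9 at week 25. Acta2, a mural cell marker, fell at week 2 and rose at week 25.

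The balance of the wound-type over the homeostatic genes, taken as the difference of their mean log2 CPM in each library, was higher in both exposed libraries than in both controls at weeks 15 and 25, and overlapped at week 2. At week 2 it was -2.00 and -1.87 in controls and -1.63 and -2.21 in exposed epidermis. The mean difference was 1.08 for the homeostatic genes and 1.10 for the wound-type genes. At week 15 it was -3.09 and -3.28 in controls and -2.36 and -1.73 in exposed epidermis, and at week 25 it was -4.09 and -3.73 against -1.80 and -1.73. The shift was 1.14 at week 15 and 2.15 at week 25, compared with a pooled SD of 0.415 between libraries of a group. At week 25 it was made of a difference of 0.68 in the homeostatic and 2.82 in the wound-type mean. Without Tnc the week 15 shift was 0.653. The balance is described without a test, since the 6 genes were chosen as 2 opposed groups.

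The exposed groups kept a similar balance over time (group means -1.92, -2.04 and -1.76), while that of the controls was lower at the later weeks (-1.93, -3.19 and -3.91). In ratios of CPM per kb, Tnc was at 6.51% and 6.28% of Itgb4 in week 25 controls and at 53.4% and 54.5% in exposed epidermis. Itga5 was at 2.46% and 2.81% of Itga6 in those controls and at 14.6% and 15.6% in exposed epidermis.

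**Figure D4:**
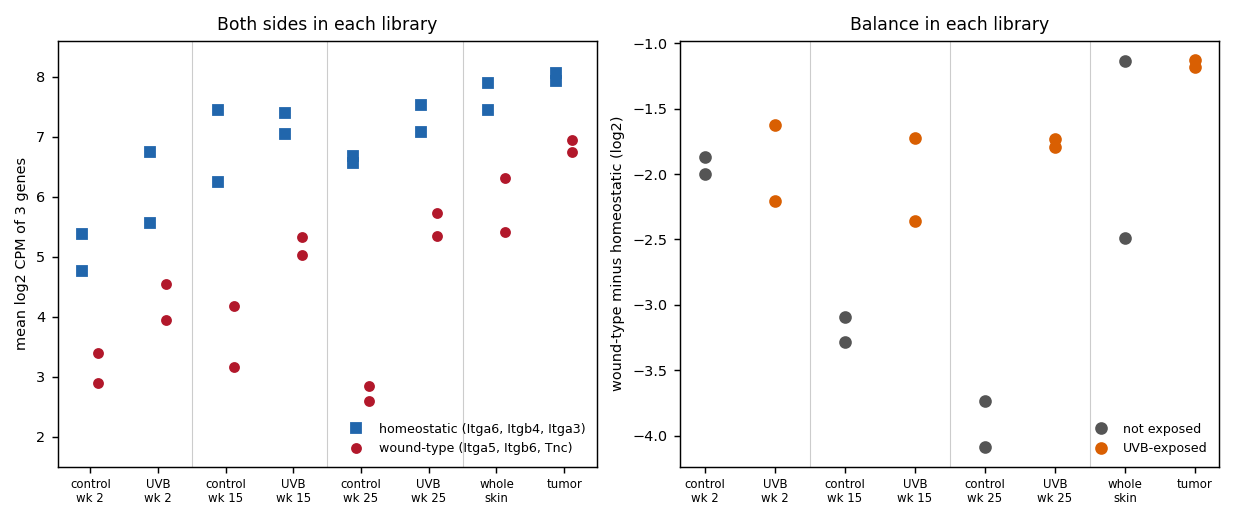
Left, the mean log2 CPM of the 3 homeostatic (squares) and 3 wound-type genes (circles) in each library, and right, the difference between these means, with grey for mice with no agent and orange for UVB-exposed mice. Controls lie at -2.00 and -1.87, then -3.09 and -3.28, then -4.09 and -3.73 at weeks 2, 15 and 25, and exposed epidermis lies between -2.36 and -1.63 throughout.

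The change of the controls was looked at in comparisons of week 25 with week 2 that were added after the data had been seen. Age, and anything else that differed between the weeks, cannot be told apart here. In control epidermis Itga6 rose by 1.19 ± 0.32 on the log2 scale (adjusted p = 0.0378), the only one of the 9 genes that rose, beside 8.47% of all genes. Itgb4 (1.64 ± 0.50, adjusted p = 0.0519), Itga3 (1.62 ± 0.52, adjusted p = 0.058) and Lama3 (1.09 ± 0.37, adjusted p = 0.0648) were higher in both week 25 libraries but not called, and all 3 were called by DESeq2. In all, 6 of the 9 genes were higher in both week 25 libraries, as were 31.7% of all genes. Itga5 (-0.80), Tnc (-0.40) and Itgb6 (-0.22) were not called. The Itga6 call was lost without week 2 control 1 or either week 25 control (adjusted p = 0.172, 0.133 and 0.121) and with only the 4 libraries in the fit (0.128), with 0.00339 to 0.172 over the alternatives. Fibroblast marker sums fell over the same weeks, from 36.9 and 45.3 to 6.41 and 3.85 CPM, and 2 of the 6 tested markers passed the test. Hair follicle sums went from 1498 and 1730 to 844 and 480 CPM (1 of 5 fell), adipocyte sums from 137 and 109 to 46.7 and 16.9 (1 of 2 tested fell) and proliferation sums from 72.7 and 66.5 to 130 and 142 (2 of 4 rose). Their part was not tested.

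In UVB-exposed epidermis, Itga5 (1.95 ± 0.42, adjusted p = 0.0304) and Lamb3 (1.51 ± 0.35, adjusted p = 0.0376) rose from week 2 to week 25, 2 of the 9 genes beside 4.04% of all genes. Both week 25 libraries were above both week 2 libraries for 8 of the 9 genes and for 31.9% of all genes. Tnc (1.66 ± 0.45, adjusted p = 0.0589) and Lama3 (1.20 ± 0.36, adjusted p = 0.0786) were not called, and Itgb6 changed by 0.18 ± 0.27. Neither call held when any 1 of the 4 libraries was left out, or under cyclic loess scaling with limma (adjusted p = 0.0872 and 0.0551). The adjusted p without week 2 UVB 0, week 2 UVB 1, week 25 UVB 0 and week 25 UVB 1 was 0.213, 0.161, 0.201 and 0.0801 for Itga5 and 0.274, 0.136, 0.295 and 0.0575 for Lamb3. The Lamb3 difference was 1.01 without week 25 UVB 0. The adjusted p ran over the alternatives from 0.00217 to 0.213 for Itga5 and from 0.0017 to 0.295 for Lamb3. Of the markers, 3 of 6 fibroblast and 2 of 5 macrophage genes rose over the same weeks, and their part was not tested.

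Other genes of cell-matrix contact were counted from lists of hemidesmosome, integrin, basement membrane, ligand and focal adhesion genes. Of the 6 hemidesmosome and anchoring genes, none was called at weeks 2 and 15, and 1 rose and 1 fell at week 25. The gene that fell was Plec, which encodes plectin, the link from beta 4 to keratin filaments (468 and 585 CPM in controls, 298 and 286 in exposed epidermis, log2 difference -0.88 ± 0.21, adjusted p = 0.0162). The list's median was 0.11, beside 0.01 over all genes. Of 16 other integrin chains tested, 3 rose and 1 fell at week 2, none was called at week 15 and 5 rose at week 25 (medians -0.09, 0.12 and 1.10). Itgb8, whose beta 8 chain also pairs with alpha v and activates TGF-beta, rose at week 2 from 5.52 and 5.08 to 41.0 and 42.7 CPM (log2 difference 2.94 ± 0.36, adjusted p = 0.00287). It was at 15.0 and 16.3 CPM in controls and 14.0 and 12.1 in exposed epidermis at week 25, and its effect at week 25 was smaller than at week 2 by an interaction of -3.22 ± 0.49 (adjusted p = 0.00986). Itga7, a laminin-binding alpha chain, rose at week 25 by 2.17 ± 0.27 (adjusted p = 0.00169).

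Among 16 tested laminin and basement membrane genes, 6 fell at week 2, 2 at week 15 and 1 at week 25, and none rose (medians -1.32, -0.23 and 0.72). Col4a5, which encodes a type IV collagen chain of the epidermal basement membrane, had 25.5 and 10.6 CPM in week 2 controls against 4.89 and 4.51, and 36.3 and 34.3 in week 25 controls against 15.6 and 12.1. Its log2 difference was -2.01 ± 0.39, -1.79 ± 0.36 and -1.37 ± 0.35 at weeks 2, 15 and 25 (adjusted p = 0.00915, 0.031 and 0.0215). Col4a6, its partner chain, fell at weeks 2 and 15 by 2.56 ± 0.50 and 2.39 ± 0.40 on the log2 scale (adjusted p = 0.00911 and 0.0167).

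Of 15 tested genes for provisional matrix and integrin ligands, 2 rose and 2 fell at week 2, none was called at week 15 and 6 rose at week 25 (median 1.10). Postn, which encodes periostin, a partner of tenascin C in the matrix, had 104 and 64.1 CPM in week 25 controls and 316 and 316 in exposed epidermis (log2 difference 1.88 ± 0.26, adjusted p = 0.00253). Spp1, the gene of the integrin ligand osteopontin, rose from 1.69 and 0.616 to 13.6 and 8.04 CPM (3.20 ± 0.53, adjusted p = 0.00437). Fn1, the gene of the alpha 5 beta 1 ligand fibronectin, was not called at any week, with 4.39 and 1.85 CPM in week 25 controls and 10.5 and 1.79 in exposed epidermis (adjusted p = 0.336). Of 24 tested focal adhesion genes 5 fell at week 2, 3 fell at week 15, and 3 rose and 2 fell at week 25 (medians -0.16, 0.03 and 0.11). Zyx, the gene of zyxin, and Actn1, that of an actinin that bundles actin, fell at week 2 by 1.32 ± 0.21 and 1.51 ± 0.28 on the log2 scale (adjusted p = 0.00486 and 0.00768).

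Tumors had the highest mean of all 8 groups for each of the 9 genes. Against whole skin without UVB, the comparison of tissue that also holds dermis, 6 of the 9 genes had both tumor libraries above both skin libraries (Itga6, Itgb1, Itga5, Tnc, Lama3 and Lamb3), which held for 22.5% of all genes. By edgeR no gene of the table was called (813 of 14661 had an unadjusted p under 0.05, and DESeq2 called 63), in a fit with 2 residual degrees of freedom. Tnc had 57.5 and 134.5 CPM in whole skin and 226.5 and 216.2 in tumors (log2 difference 1.14 ± 0.41, adjusted p = 0.891). Itga5 had 38.4 and 64.6 CPM in skin and 108.1 and 114.1 in tumors (1.04 ± 0.30, adjusted p = 0.891). The other 7 genes differed by 0.12 to 0.41. Without whole skin 0 or whole skin 1 the test called 7 and 6 of the 9 genes, as the lone skin library was then assumed to vary like the tumor pair. Whole skin 0 and 1 had fibroblast sums of 571 and 1084 CPM and tumors 1109 and 1500. Macrophage sums were 220 and 275 in skin and 332 and 437 in tumors, endothelial sums 82.8 and 172 against 192 and 305, T cell sums 131 and 54.2 against 24.6 and 33.8, and their part was not tested.

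Against UVB-exposed epidermis of the same week, 4 of the 9 genes were higher in tumors, beside 16.8% of all genes. Itga5 stood at 26.9 and 20.5 CPM in epidermis and 108.1 and 114.1 in tumors, with a log2 difference of 2.23 ± 0.37 (adjusted p = 0.000648), and it was called under all 10 alternatives. Lama3 (1.23 ± 0.33, adjusted p = 0.0125), Lamb3 (1.05 ± 0.32, adjusted p = 0.0235) and Itgb1 (1.23 ± 0.40, adjusted p = 0.0319) also rose. These 3 calls were lost without epidermis UVB 1 (adjusted p = 0.164, 0.254 and 0.273) and without tumor 0 (0.0887, 0.0974 and 0.1255), and those of Lamb3 and Itgb1 without tumor 1 too (0.0781 and 0.0828). The Lamb3 difference was 0.67 without epidermis UVB 1. Over the alternatives the adjusted p ran from 0.000935 to 0.164 for Lama3, from 0.0016 to 0.254 for Lamb3 and from 0.000536 to 0.273 for Itgb1. Tnc (0.97 ± 0.46, adjusted p = 0.13), Itgb6 (0.70), Itga3 (0.79), Itga6 (0.66) and Itgb4 (0.59) were not called, although all 9 genes had both tumor libraries above both epidermis libraries (40.5% of all genes). All 7 fibroblast, all 5 macrophage and all 6 endothelial markers were also higher in tumors, with fibroblast sums of 1109 and 1500 CPM against 143.9 and 36.3, and their part was not tested.

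Whole skin without UVB, which holds dermis, was also compared with control epidermis of week 25. There 8 of the 9 rose, all but Itgb4, where 31.9% of all genes did and the median over all genes was 0.18. Both whole skin libraries were above both controls for all 9 genes and for 41.7% of all genes. The difference was 4.498 ± 0.45 for Itga5 (adjusted p = 8.23e-06), 3.42 ± 0.53 for Tnc (0.000153, and 2.67 without whole skin 1), 2.57 ± 0.42 for Itgb1 (0.000234) and 1.69 ± 0.33 for Itgb6 (0.000873). Lamb3 (1.29), Lama3 (1.17), Itga3 (1.16) and Itga6 (1.12) also rose, and under cyclic loess scaling Itga5 stood at 3.62 and Itga6 at 1.84. Itgb4 stood at 0.96 ± 0.47 (adjusted p = 0.0981). Itga3 was not called without control 0, control 1 or whole skin 0 (adjusted p = 0.0957, 0.194 and 0.195, with 0.0137 to 0.195 over the alternatives). Without control 1, Itga6 (0.0509, with 0.000513 to 0.0509) and Lama3 (0.0556, with 0.00121 to 0.0556) were not called either. The fibroblast sum was 571 and 1084 CPM in whole skin against 6.41 and 3.85 in epidermis, all 7 markers rose, as did all 6 endothelial and all 5 macrophage markers, and their part was not tested.

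The balance was -2.49 and -1.13 in whole skin and -1.13 and -1.18 in tumors. The mean difference of tumors from whole skin, 0.654, lay within the gap between the whole skin libraries, and without whole skin 0 it was -0.022. Tumors were above UVB-exposed epidermis by 0.607, with no overlap, but by 0.098 under cyclic loess scaling and by 0.14 without Itga5. Whole skin was above control epidermis by 2.10, and by 1.14 under cyclic loess scaling.

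Ordered by group mean, the levels of the homeostatic genes ran from week 2 controls (Itga6 51.6, Itgb4 37.7 and Itga3 21.5 CPM) to tumors (344, 274 and 179 CPM). For Itgb4 each neighbour in that order overlapped the next in range. For Itga5, which ran from 2.25 CPM in week 25 controls to 111 CPM in tumors, the only neighbours that overlapped were week 15 controls and week 2 UVB epidermis. Tnc ran from 8.94 to 221 CPM, with overlapping neighbours among week 25 UVB epidermis, whole skin and week 15 UVB epidermis, and among week 2 UVB epidermis and the controls of weeks 15 and 2. Itgb6 ran from 14.3 to 63.1 CPM, and the only neighbours in its order that did not overlap were week 2 UVB epidermis and week 15 controls, which separate all control epidermis from all other groups.

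Genes with the most similar profile were found by the root mean square difference of centred log2 CPM over the 16 libraries, among the 11641 genes whose mean reached 5 CPM. All profiles share the libraries and their scaling. Itgb4 and Itga3 were each other's nearest gene (0.214, where the median gene stood at 1.09 from Itgb4 and 1.12 from Itga3), followed by Slc12a4 for Itgb4 (0.246) and Agrn for Itga3 (0.267). Itga6 was nearest to Slc7a5 (0.19) and Mcm6 (0.219), and Itgb6 to Cdt1 (0.218) and Tipin (0.23). Itga5 was near Sla (0.426), which blood-derived cells are known to express, and Tnc was nearest to Abcg2 (0.393) and Fgr (0.479). Tnc and Itga5, whose own SD over the libraries was 1.66 and 1.83, stood 0.73 apart. The median gene stood at 1.73 from Tnc and 1.89 from Itga5. Itgb6, with an SD of 0.753, stood 0.983 from Tnc and 1.22 from Itga5, where its median gene stood at 0.895. It stood 0.486 from Itga6 and 0.794 from both Itgb4 and Itga3, so the 3 wound-type genes did not share 1 profile.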

How the data were processed

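RNA-seq of 16 libraries was analysed from 1 deposited table of whole-number read counts per gene for 24421 genes, with exon coordinates. Per the submitters' processing notes, the authors used HISAT2, Picard, featureCounts and DESeq2 on mm10; for versions, strand setting and multimapped reads, the sources used here give no statement. Per the file headers, the counts come from alignments without duplicates, which sets a ceiling. With short genes left out, the highest gene reached 1.83 to 2.11 counts per base in each library, and the 9 genes at most 0.564.

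Tests were run with edgeR 4.0.16 in R 4.3.3 (filterByExpr by group, minimum count 10 and total 15, TMM, quasi-likelihood F test, Benjamini-Hochberg adjustment). The 12 epidermis libraries were fitted together (13478 genes, 6 residual degrees of freedom). An additive fit gave the mean over weeks (8), the 4 tumor and whole skin libraries were fitted alone (14661 genes, 2), and all 16 libraries gave the comparisons of tumor or whole skin with epidermis (15126 genes, 8). Fitted log2 values use a prior count of 0.125, and SE is the log2 value over the root of F. Scripts were tested on simulated data. DESeq2 1.42.0, limma 3.58.1 with cyclic loess, other scaling and filters, other sets of libraries, a replicate block and leaving out each library were tried as alternatives.

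The 9 genes and all gene lists were chosen with earlier results of these data known. All 9 are described in each comparison. Of each list, up to 2 called genes with the smallest p per comparison are named, the most abundant gene of a marker list, and for 6 of the 9 genes the 2 nearest profiles. Itgav and Fn1 were named after their values were seen. A few genes that these rules name are not reported here.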

Additional observations from a re-analysis of the deposited data

Results flagged for a closer look

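The effect of UVB on Itga5 differed between weeks: it was larger at week 25 than at week 2 by 2.76 ± 0.66 on the log2 scale (edgeR interaction test, adjusted p = 0.0319). Both exposed libraries were above both controls at each of these weeks. The Itga5 difference was called in 6 of 14 alternatives, with an adjusted p from 0.00479 to 0.111.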

How the results depend on the processing

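With 2 libraries a group, a single library often decided a call, and the precision of Itga5 is limited by its 6 to 827 counts. Among values of single genes under settings other than leaving out a library, 589 kept their direction and side of the threshold, 39 gained a call, 7 lost one and 4 changed sign. Among those without 1 library, 440 kept both, 19 gained a call, 44 lost one and 37 changed sign. None of the values that changed sign had been called. Where 1 library of a group was left out, the remaining one was assumed to vary like the other groups, and the cause of a change was not tested.

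The labels do not say whether library numbers pair the samples. Same-numbered deviations of the 2 groups correlated at 0.00515, -0.026 and 0.154 at weeks 2, 15 and 25 and at -0.0114 between tumor and whole skin. Such correlations over genes cannot decide whether the samples were paired. With a replicate block, 2079 genes were called at week 2 and 558 at week 15, and tumor against whole skin went from 0 to 235 genes, none of the 9 among them. The block changed the sign of Itga3 at week 15 (0.0262).

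For the 3 weeks, DESeq2 called 4 of the 9 genes at week 2 and, at week 15, 2 of the 9 and 1006 of all genes. Without the low count filter it was 5 at week 2, and 2 of the 9 and 1146 of all genes at week 15. With all 16 libraries in the fit 1 of the 9 was called at week 2, 234 of all genes at week 15 and 1779 at week 25. With only the 4 libraries compared, 0 of the 9 and 684 of all genes were called at week 2, and 4562 of all genes at week 25. The difference in effect between weeks 15 and 2 was called for 50 genes by DESeq2 and 26 without the filter. That between weeks 25 and 2 was called for 1758 genes and 2 of the 9 by DESeq2, 1612 and 2 without the filter, 0 of the 9 under cyclic loess and 517 genes in the fit of 16.

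Tumor against whole skin gave 63 genes by DESeq2, 1 without the filter and 7 in the fit of 16. Tumor against UVB epidermis gave 2830 genes under cyclic loess, and 6974 genes and 9 of the 9 with only 4 libraries. For controls between weeks 25 and 2, genes called and members among them were 2978 and 4 by DESeq2, 2808 and 4 without the filter, 2844 and 4 under cyclic loess, and 1 and 0 with 4 libraries, and the fit of 16 called 864 genes. For UVB epidermis between these weeks they were 1154 and 4, 1128 and 7, 225 and 0, and 1912 and 4 under the same 4 settings in that order. Cyclic loess changed the sign of Lamb3 at week 2 (-0.118), Itga3 at week 15 (0.138) and the Itgb6 difference between weeks 15 and 2 (0.0294).

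The balance shift at week 15 was 0.653 without Tnc, and at week 25 it was 2.83 without Itgb6. Tumor over UVB epidermis was 0.098 under cyclic loess and 0.140 without Itga5. Whole skin over control epidermis was 1.14 under cyclic loess, 1.45 without Itga5 and 2.83 without Itgb6.

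Leaving out 1 library at a time gave 125 to 4377 called genes and 0 to 2 of the 9 at week 2, 26 to 1463 and 0 to 1 at week 15, and 519 to 976 and 2 to 4 at week 25. The mean over weeks ran from 2816 to 4470 genes and 5 to 7 of the 9. The difference between weeks 15 and 2 ran from 0 to 800 genes with 0 of the 9, and that between weeks 25 and 2 from 71 to 3454 with 0 to 1. Tumor against whole skin ran from 5 to 5488 genes and 0 to 7 of the 9, tumor against UVB epidermis from 2089 to 3405 and 1 to 4, and whole skin against control epidermis from 6225 to 8923 and 5 to 9. Week 25 against week 2 ran from 155 to 4588 and 0 to 3 in controls and from 0 to 27 and 0 in exposed epidermis. The balance ran from -0.278 to 0.306, from 0.827 to 1.46 and from 1.97 to 2.32 at weeks 2, 15 and 25, from -0.022 to 1.33 for tumor against whole skin, from 0.573 to 0.641 against UVB epidermis and from 1.42 to 2.78 for whole skin against control epidermis.

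Log2 differences that changed sign without 1 library ran, at week 2, from -0.0977 to 0.990 for Lama3 and -0.346 to 0.337 for Lamb3. At week 15 they ran from -0.114 to 1.03 for Itgb4, -0.579 to 0.948 for Itga3, -0.0449 to 0.475 for Lama3 and -0.219 to 0.680 for Lamb3, and at week 25 from -0.149 to 0.755 for Lama3. The differences between weeks 15 and 2 ran from -1.57 to 0.0804 for Itgb4, -1.20 to 0.189 for Itgb1, -0.259 to 0.977 for Itga5, -0.287 to 0.210 for Itgb6, -0.795 to 0.297 for Lama3 and -0.313 to 0.643 for Lamb3. Those between weeks 25 and 2 ran from -0.734 to 0.135 for Itga6, -1.34 to 0.295 for Itgb4, -0.931 to 0.365 for Itga3, -0.124 to 0.879 for Itgb1 and -0.585 to 0.478 for Lama3. Tumor against whole skin ran from -0.248 to 0.662 for Itgb4 and -0.0905 to 0.522 for Itga3. Itgb6 between weeks 25 and 2 ran from -0.566 to 0.0709 in controls and -0.0941 to 0.408 in exposed epidermis.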
